A study of Oryctolagus cuniculus with 15 samples.

Results

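FOS, FOSB, JUN, ATF3 and MAFF are immediate early genes of the AP-1 family of leucine zipper transcription factors and of its small Maf partners. They were chosen by gene symbol, with earlier results of these data known. They are 5 of the 23428 genes in the deposited tables. The study sequenced RNA of first-passage corneal keratocytes (the resident cells of the corneal stroma) from New Zealand white rabbit eyes, kept without serum until day 6. It holds 15 libraries, 3 from separate experiments for each of 5 conditions. In 2DC the cells grew on a dish coated with type I collagen, and in 2DF on top of a fibrillar collagen matrix. In 3DF the cells were embedded in such a matrix at 100000 cells per matrix, and in 3DF_50 at 50000. In all 4 of these conditions the cells met digestion medium for 15 min before lysis, whereas 2DC_L was a collagen-coated dish lysed directly.

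AP-1 is a dimer built on Jun proteins, which pair with each other or with Fos or ATF proteins, and it binds short DNA elements near genes of growth, matrix turnover and stress. FOS, FOSB, JUN and ATF3 are kept low in resting cells and are transcribed within minutes of a growth factor, a mechanical strain or a stress, through factors that already sit on their promoters. Small Maf proteins such as MAFF lack an activation domain and pair with CNC factors at antioxidant elements. In many tissues, these genes are known as early responders to wounding and to enzymatic cell isolation.

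The 2DC and 2DC_L libraries differ by the digestion, and the comparison of the fibrillar conditions with 2DC has digestion on both sides. The second comparison is not of collagen alone. Fibrillar matrices were lifted, digested in tubes on a rocker, and their cells were pelleted and rinsed, while 2DC cells were digested in the dish. All fibrillar libraries analysed here were digested. Fibrillar collagen, this added handling and a response to digestion that differs on a matrix thus cannot be told apart. The paper also names a difference in stiffness between 2DF and 2DC, and a lower effective cell density for embedded cells. The library names carry 8 prefixes, 5 of which occur in more than 1 condition and cover 12 of the 15 libraries, and what a prefix stands for is not given. In bulk RNA, a change in the number of responding cells and a change in RNA per cell cannot be told apart.

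Between 14626982 and 31804255 reads were counted per library. All 9 keratocyte markers that matched a gene (of 10) reached 1 FPKM (fragments scaled by gene length and library size) in each condition, with summed levels of 21765 to 43605 FPKM. Summed corneal epithelial markers (9 of 10 matched) were 0.251 to 0.982 FPKM in 2DC_L, 0.260 to 1.15 in 2DC, 0.767 to 5.91 in 2DF, 7.63 to 13.2 in 3DF and 0.0373 to 5.90 in 3DF_50. Of these 9 markers, 5 were at 3 counts or fewer in every library of 2DC_L, 4 in 2DC, 3 in 2DF (KRT15, EPCAM and DSG3), 0 in 3DF and 4 in 3DF_50. Summed vascular endothelial markers (6 of 6 matched) were 40.0 to 47.9 FPKM in 2DC_L, 33.3 to 62.6 in 2DC, 51.3 to 67.9 in 2DF, 117 to 119 in 3DF and 50.0 to 75.6 in 3DF_50, and 2 of the 6 reached 1 FPKM in each condition. At 3 counts or fewer in every library were 0 of them in 2DC_L, PECAM1 and TEK in 2DC and 2DF, PECAM1 in 3DF, and PECAM1 and TIE1 in 3DF_50. The part of these cell type markers in the results below was not tested.

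On the oryCun2 genome, FOS lies on the minus strand of chromosome 20 (29860066 to 29863336) and JUN on the plus strand of chromosome 13 (107997083 to 107998198). JUN's counted model of 1116 bases fills its whole span, so that it has no intron. ATF3 lies on the minus strand of chromosome 16 (60421650 to 60434504) and MAFF on the minus strand of chromosome 4 (84831530 to 84832440). FOSB is on the unplaced scaffold Un0309 (121963 to 125744, plus strand). All are protein-coding, and 0 other genes of the tables overlap any of them. All 5 passed the filter on low counts in each of the 10 pairwise comparisons.

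**Figure D1:**
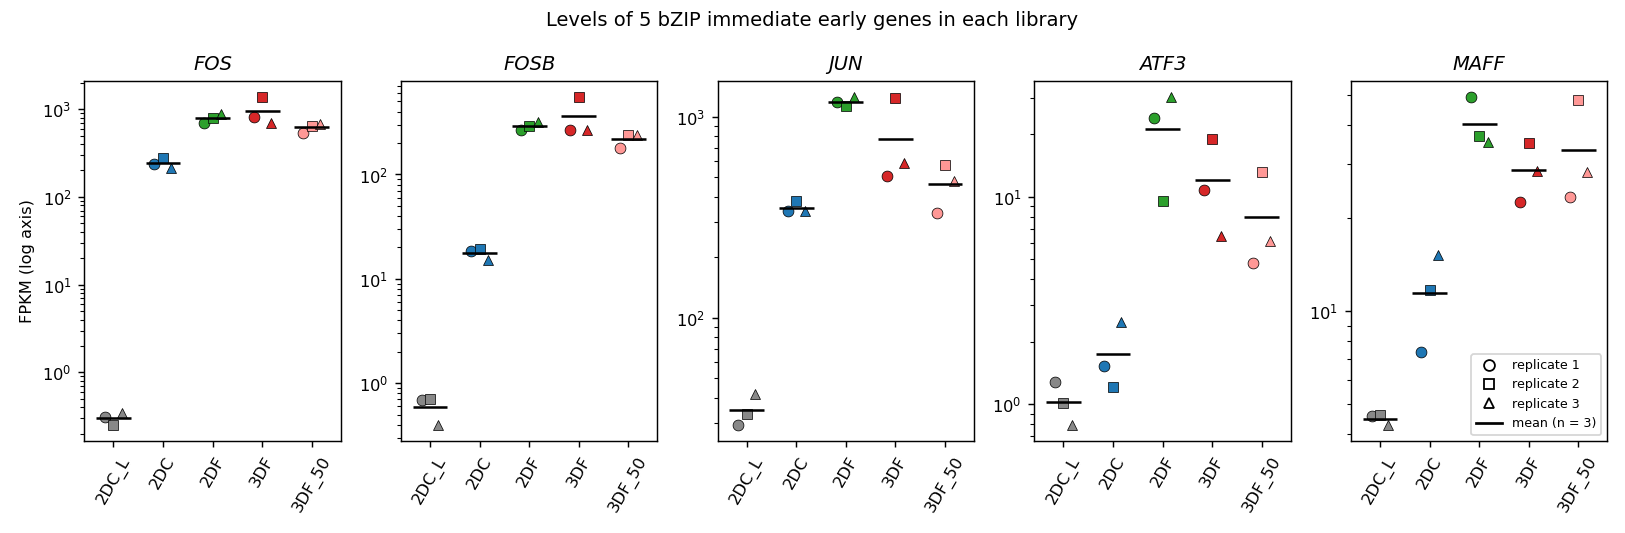
FPKM of FOS, FOSB, JUN, ATF3 and MAFF in each library (points, replicates 1 to 3) by condition, with a log axis that differs in range between panels and a line at the mean of each condition. FOS, FOSB and JUN step up from 2DC_L to 2DC, while ATF3 overlaps between those conditions (0.792 to 1.27 against 1.20 to 2.48 FPKM) and is higher in every fibrillar library.

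FOS, FOSB and JUN were higher after digestion alone. FOS, the founding Fos protein, stood at 0.311, 0.251 and 0.343 FPKM in the 2DC_L libraries and at 237, 275 and 214 in 2DC. FOSB, its close relative, was at 0.696, 0.699 and 0.397 FPKM in 2DC_L and at 18.5, 19.5 and 15.1 in 2DC. JUN, the main partner of both, was at 29.2, 33.2 and 41.5 FPKM in 2DC_L and at 339, 380.0 and 339 in 2DC. For these genes every digested library lay above every directly lysed one. The log2 fold changes were 9.66 for FOS (SE 0.17, edgeR quasi-likelihood adjusted p = 1.32e-07), 4.83 for FOSB (SE 0.19, adjusted p = 1.01e-05) and 3.35 for JUN (SE 0.14, adjusted p = 1.12e-05). By size of the change, FOS ranked 1, FOSB 5 and JUN 11 of 13608 genes tested.

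ATF3 and MAFF did not pass the test of digestion. ATF3, a stress-induced repressor and partner of JUN, was at 1.27, 1.01 and 0.792 FPKM in 2DC_L and at 1.53, 1.20 and 2.48 in 2DC, and the conditions overlapped. The edgeR estimate was 0.74 on the log2 scale (SE 0.30, adjusted p = 0.865). MAFF was at 4.59, 4.62 and 4.29 FPKM in 2DC_L and at 7.38, 11.7 and 15.3 in 2DC, with no overlap. By edgeR its log2 change was 1.34 (SE 0.27, adjusted p = 0.199), and DESeq2 called it (adjusted p = 0.00316), as did edgeR without 2DC replicate 1 (adjusted p = 0.0310). The count was thus 3 of 5 genes called higher, where 0.257% of all genes tested were called higher (adjusted p at or under 0.05 with at least a log2 change of 1). With no overlap between conditions were 4 of 5, all higher in 2DC, beside 7.39% of all genes.

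All 5 genes were higher in 2DF than in 2DC. FOS reached 689, 792 and 876 FPKM in 2DF, and FOSB reached 264, 289 and 318. JUN was at 1188, 1132 and 1248 FPKM. No 2DF library overlapped 2DC for these genes. ATF3 was at 23.9, 9.48 and 30.1 FPKM in 2DF and MAFF at 49.2, 36.8 and 35.2, again all above 2DC. The fold changes were 16.5 for FOSB, 12.3 for ATF3, 3.57 for MAFF, 3.39 for JUN and 3.26 for FOS. The edgeR adjusted p was 3.65e-06 for FOSB, 0.00119 for ATF3, 0.00234 for MAFF, 4.18e-05 for JUN and 0.000234 for FOS. The count of 5 of 5 stands beside 2.04% of all genes called higher, and that of 5 of 5 without overlap beside 17.3%. With the library prefix as a block in the fit, 2DF is joined to the other conditions through a lone shared prefix (E5). FOSB alone of the 5 was then called (log2 change 3.43, edgeR adjusted p = 0.0233). Calls fell over all genes too, to 16 of 14036 tested in either direction, where the main fit called 658 of 13258. The other estimates in that fit were 1.11 for FOS, 0.78 for JUN, 2.53 for ATF3 and 1.04 for MAFF (edgeR adjusted p between 0.188 and 0.505).

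Embedding the cells in the matrix gave the same count with wider spread. In 3DF, FOS was at 809, 1361 and 688 FPKM and FOSB at 268, 547 and 266. JUN was at 509, 1235 and 588 FPKM, ATF3 at 10.7, 19.0 and 6.46, and MAFF at 22.5, 35.1 and 28.4. Replicate 2 was the highest of the 3DF libraries for all 5 genes, and no 3DF library overlapped 2DC. Against 2DC the log2 fold changes were 1.97 for FOS (SE 0.26, edgeR adjusted p = 0.00179), 4.34 for FOSB (SE 0.32, adjusted p = 0.000161), 2.79 for ATF3 (SE 0.42, adjusted p = 0.00328), 1.32 for MAFF (SE 0.28, adjusted p = 0.0149) and 1.13 for JUN (SE 0.31, adjusted p = 0.0409). The count was 5 of 5, beside 3.24% of all genes called higher, and 5 of 5 did not overlap, beside 19.1%. MAFF lost the call without 2DC replicate 2 (edgeR adjusted p = 0.0589). JUN lost it without 2DC replicate 1, 2 or 3 (edgeR adjusted p = 0.105, 0.114 and 0.121), without 3DF replicate 2 (a log2 change of 0.62), with the prefix block (0.91) and in both limma fits.

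At 50000 cells per matrix, 4 of the 5 genes were called higher than in 2DC, beside 4.28% of all genes. FOS was at 540.5, 648 and 671 FPKM in 3DF_50 and FOSB at 179, 239.5 and 237. ATF3 was at 4.79, 13.1 and 6.13 FPKM and MAFF at 23.5, 48.2 and 28.3. These libraries lay above all 2DC libraries, with fold changes of 12.4 for FOSB, 4.63 for ATF3, 2.94 for MAFF and 2.56 for FOS (edgeR adjusted p = 1.76e-06, 0.00247, 0.00501 and 8.60e-05). JUN, at 333, 575 and 481 FPKM, overlapped 2DC. The JUN estimate was 0.39 on the log2 scale (SE 0.18, edgeR adjusted p = 0.110). The 4 called genes are also the 4 of 5 that did not overlap 2DC, beside 25.5% of all genes. With the prefix block MAFF fell to 0.99, under the limit of 1, and was not called.

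**Figure D2:**
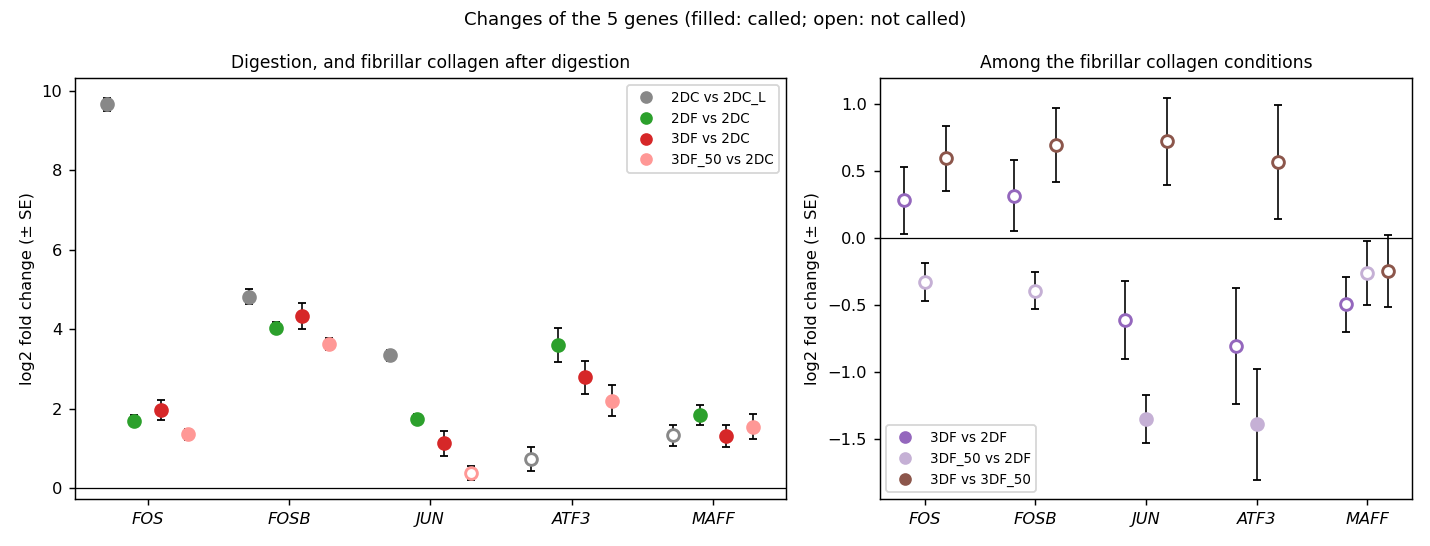
Log2 fold changes of the 5 genes with their SE (bars), on the left for digestion (2DC vs. 2DC_L) and for 2DF, 3DF and 3DF_50 against 2DC, and on the right among the fibrillar conditions, with called genes filled. FOS changed by 9.66 with digestion and by 1.36 to 1.97 in the fibrillar conditions, whereas ATF3 had 0.74 with digestion and 2.21 to 3.62 in the fibrillar conditions.

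The share of the change that lay between 2DC_L and 2DC differed from gene to gene. Of the log2 change from 2DC_L to a fibrillar condition, the digestion step held 83.0% to 87.6% for FOS over the fibrillar conditions. For FOSB it held 54.4%, 52.6% and 57.1%, close to an even split. JUN had shares of 65.6% for 2DF, 74.6% for 3DF and 89.4% for 3DF_50. MAFF lay near the middle at 42.0%, 49.9% and 46.1%. ATF3 was at the other end, with 16.8%, 20.7% and 24.8%. For ATF3 and MAFF these shares rest on a digestion change that did not pass its test. The shares hold on the log2 scale only. In mean FPKM, FOS rose from 0.302 in 2DC_L to 242 in 2DC, then to 786 in 2DF, 953 in 3DF and 620 in 3DF_50. On that scale the larger FOS gain lay between 2DC and each fibrillar condition. No fibrillar matrix was lysed directly, so the digestion step was measured on the coated dish only. With the fibrillar conditions averaged in a fit over all libraries, all 5 genes were called above 2DC, beside 2.86% of all genes. JUN, at 1.10 on the log2 scale, lost that call with the prefix block (0.47, edgeR adjusted p = 0.123) and fell under the limit of 1 without 3DF replicate 2 (0.93).

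A contrast of the fibrillar change with the digestion change, in an edgeR fit over all 15 libraries, tested whether those changes were unequal. For FOS the fibrillar change minus the digestion change was -7.95 on the log2 scale in 2DF (adjusted p = 3.57e-09), -7.68 in 3DF (adjusted p = 6.12e-09) and -8.30 in 3DF_50 (adjusted p = 1.85e-09). For JUN the difference was -2.21 in 3DF (adjusted p = 0.00743) and -2.96 in 3DF_50 (adjusted p = 0.000473), while in 2DF it was -1.59 and did not pass (adjusted p = 0.109). The JUN call in 3DF was lost without 2DC replicate 2 (edgeR adjusted p = 0.0511). In 2DF, JUN passed with DESeq2 (adjusted p = 0.0204), with no filter (0.0330), with the prefix block (-2.90, 0.0351) and without 3DF replicate 2 (0.0139). ATF3 had differences of 2.89, 2.07 and 1.48 towards the fibrillar change, none of which passed (adjusted p = 0.156, 0.264 and 0.365). FOSB (-0.79, -0.48 and -1.20) and MAFF (0.51, 0.0062 and 0.23) did not pass either, with edgeR adjusted p between 0.111 and 0.999. FOSB in 3DF_50 passed with DESeq2 (adjusted p = 0.0431), with the prefix block (-1.78, 0.0425) and without 3DF replicate 2 (0.0146). The counts of 1, 2 and 2 of 5 genes stand beside 1.11%, 3.87% and 7.94% of all genes. These contrasts share the 2DC libraries, which enter both changes with opposite sign.

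Digestion and matrix together, as each fibrillar condition against 2DC_L, gave 5 of 5 genes called higher in 2DF, 3DF and 3DF_50, beside 2.93%, 4.24% and 5.05% of all genes. With the prefix block, ATF3 (3.26, edgeR adjusted p = 0.0507) and MAFF (2.36, adjusted p = 0.0653) lost the call in 2DF, which left 3 genes. Over all genes that fit called 87 of 14036, where the main fit called 972 of 13152. The log2 fold changes were 11.02 to 11.64 for FOS, 8.46 to 9.19 for FOSB, 3.75 to 5.12 for JUN, 2.94 to 4.35 for ATF3 and 2.67 to 3.17 for MAFF. FOS rests on 12 to 19 counts in each 2DC_L library, so that its fold carries their counting error.

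Within a shared library prefix, the direction was the same for the digestion. In prefixes E2 and E3 the log2 ratio of FPKM in 2DC to 2DC_L was 9.57 and 10.10 for FOS, 4.73 and 4.80 for FOSB, and 3.54 and 3.52 for JUN. ATF3 had 0.26 and 0.25, and MAFF 0.69 and 1.34. Between 3DF and 2DC only prefix E6 is shared, and its ratios were 1.92 for FOS, 4.16 for FOSB, 0.59 for JUN, 2.12 for ATF3 and 0.56 for MAFF. Between 3DF_50 and 2DC only E3 is shared, with 0.97 for FOS, 3.20 for FOSB, -0.19 for JUN, 1.99 for ATF3 and 1.01 for MAFF. 2DF shares no prefix with 2DC, so no such ratio could be had for that comparison, and the fit with the prefix block reaches it only through E5 of 3DF_50.

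Among the fibrillar conditions, JUN was called lower in 3DF_50 than in 2DF. All 3 JUN libraries of 3DF_50 lay below those of 2DF, and edgeR gave a log2 difference of -1.35 (SE 0.18, adjusted p = 0.000629). With the prefix block the JUN difference was -1.06 and the call was lost (edgeR adjusted p = 0.0723). That fit called 236 of all 14036 genes tested, where the main fit called 587 of 13201. ATF3 was also called lower in 3DF_50, by -1.39 (SE 0.41, edgeR adjusted p = 0.0499959), but the conditions overlapped. DESeq2 (adjusted p = 0.133), limma, library size scaling and both blocks did not call it, nor did edgeR without 2DF replicate 1 or 3 or without 3DF_50 replicate 1 or 3 (adjusted p between 0.110 and 0.161). These are 2 of 5 genes, beside 3.01% of all genes called lower. FOS (-0.33), FOSB (-0.39) and MAFF (-0.26) did not pass, with edgeR adjusted p of 0.175, 0.0930 and 0.553.

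Between 3DF and 2DF, 0 of the 5 genes were called by edgeR or by DESeq2, where edgeR called 3.78% of all genes. In the same edgeR test 1 gene, MAFF, had an unadjusted p under 0.05. The log2 differences were 0.28 for FOS, 0.32 for FOSB, -0.61 for JUN, -0.80 for ATF3 and -0.49 for MAFF. Without 3DF replicate 2 the JUN difference was -1.13 and was called (edgeR adjusted p = 0.00615). Between 3DF and 3DF_50, 0 of 5 were called by either tool, where edgeR called 0.452% of all genes. In that edgeR test 2 genes, FOS and FOSB, had an unadjusted p under 0.05. Those log2 differences were 0.59 for FOS, 0.69 for FOSB, 0.72 for JUN, 0.57 for ATF3 and -0.24 for MAFF.

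Ordered by mean FPKM, FOS and FOSB ran from 2DC_L through 2DC, 3DF_50 and 2DF to 3DF. Their first 2 steps were called, and the last 2 were not. JUN and ATF3 ran from 2DC_L through 2DC, 3DF_50 and 3DF to 2DF, with only the step from 2DC_L to 2DC called for JUN and only that from 2DC to 3DF_50 for ATF3. MAFF ran from 2DC_L through 2DC, 3DF and 3DF_50 to 2DF, and only its step from 2DC to 3DF was called. Per length, JUN had the highest mean FPKM of the 5 in 2DC_L (34.6 ± 6.28, SD, n = 3), 2DC (353 ± 23.7) and 2DF (1189 ± 57.8), and FOS in 3DF (953 ± 359) and 3DF_50 (619.8 ± 69.7).

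The make-up of the Fos family changed with each step. In 2DC_L, FOSL2, a Fos protein also present in unstimulated cells, held 88.7% ± 2.19 (SD, n = 3) of the summed FPKM of FOS, FOSB, FOSL1 and FOSL2, and FOS held 1.24% ± 0.261. In 2DC, FOS held 84.4% ± 2.36, FOSL2 8.43% ± 2.02 and FOSB 6.17% ± 0.458. FOSB then held 26.1% ± 0.468 in 2DF, 26.2% ± 1.88 in 3DF and 24.3% ± 0.972 in 3DF_50. Summed over the family, the level was 24.5 ± 1.86 FPKM in 2DC_L, 286 ± 30.1 in 2DC, 1115 ± 122 in 2DF, 1359 ± 529 in 3DF and 896 ± 109 in 3DF_50.

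Relative to FOS, FOSB was at 7.05% to 7.80% in the 3 libraries of 2DC and at 33.1% to 40.2% in the 9 fibrillar libraries. The ratio of JUN to FOS was 1.42 to 1.72 in 2DF and 0.615 to 0.908 in the 6 libraries of 3DF and 3DF_50. In 2DC it was 1.38 to 1.59. Both ratios were picked after their values were seen and are given without a test.

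**Figure D3:**
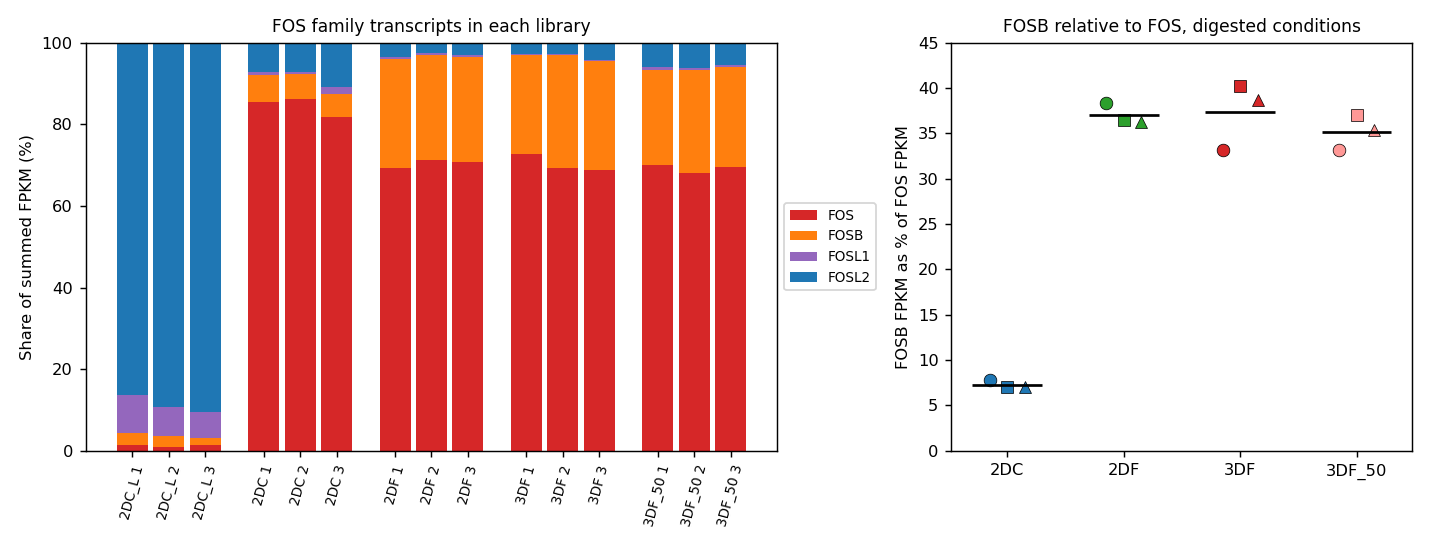
Left, share of the summed FPKM of FOS, FOSB, FOSL1 and FOSL2 (%) in each library, with FOSL2 at 86.3% to 90.6% in 2DC_L and FOS at 81.7% to 86.1% in 2DC. Right, FOSB FPKM as a percentage of FOS FPKM in the digested libraries (points) with the mean of each condition (line), from 7.05% to 7.80% in 2DC and from 33.1% to 40.2% in the fibrillar conditions.

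Other leucine zipper genes moved less. Of 28 relatives (22 matched), 1 of 19 tested was called higher with digestion, namely DDIT3, a stress factor that pairs with C/EBP proteins (1.22 on the log2 scale, SE 0.11, edgeR adjusted p = 0.00184). Among 19 tested in 2DF against 2DC, 3 were called higher, with DDIT3 (1.61) and CEBPB (1.24), an inflammatory C/EBP factor, among them. In 3DF vs. 2DC, 3 of 19 were called higher, with BATF2 (1.35) and CEBPB (1.22) among them. In 3DF_50 vs. 2DC, 5 of 20 were called higher, with CEBPB (1.50) and FOSL2 (1.15) among them, and CREB5 was called lower (-1.05). Of all genes tested, 0.257%, 2.04%, 3.24% and 4.28% were called higher in those comparisons. In 3DF_50 vs. 2DC, 1557 of 13402 genes were called in either direction, 574 of them higher. The median log2 fold change of the list was 0.13, 0.31, 0.36 and 0.44 in the same comparisons, beside -0.0048, 0.0045, 0.012 and 0.012 over all genes tested. FOSL2 itself had a mean of 21.8 FPKM in 2DC_L and 23.8 in 2DC (log2 fold change 0.13, edgeR adjusted p = 0.931). JUNB, JUND, MAFG and MAFK are not analysed here.

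**Figure D4:**
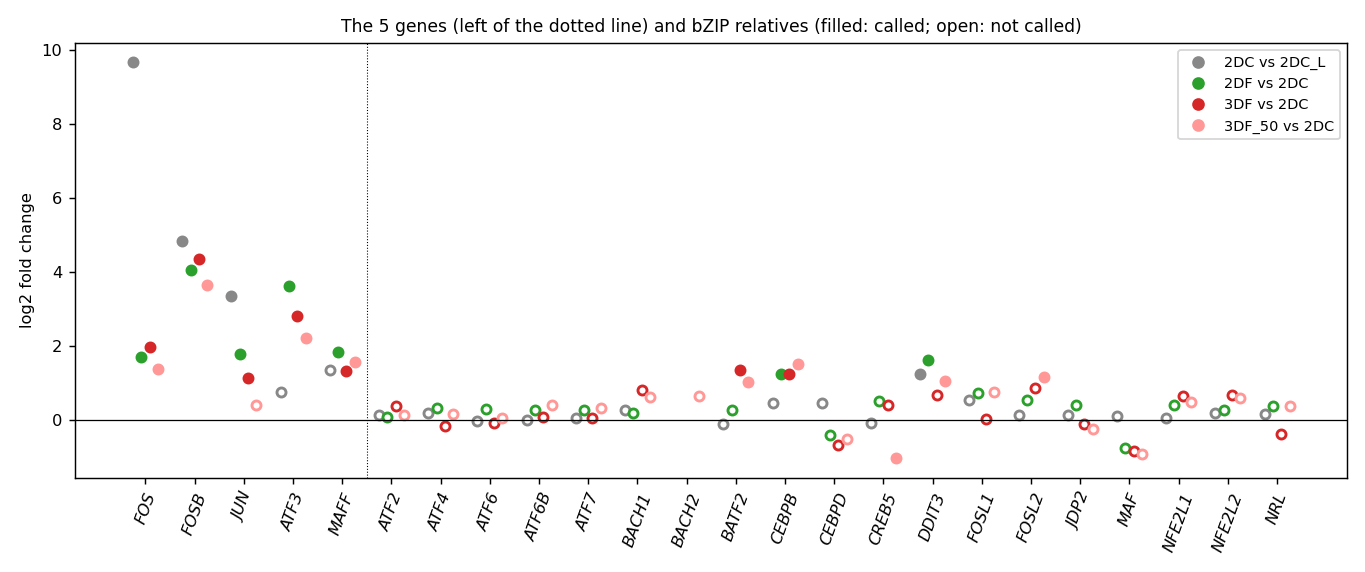
Log2 fold changes of the 5 genes (left of the dotted line) and of leucine zipper relatives, for digestion and for the fibrillar conditions against 2DC, with called genes filled. Of the relatives shown, DDIT3 is the only 1 called with digestion (1.22), and CEBPB is called in each fibrillar condition (1.22 to 1.50).

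The kinases and factors upstream of FOS and JUN were mostly not called. Of 27 such genes (26 matched, 25 tested), SRF, the serum response factor that binds the FOS promoter, was the only 1 called with digestion, from 6.80 ± 0.168 FPKM in 2DC_L to 26.9 ± 2.61 in 2DC (1.98 on the log2 scale, SE 0.09, edgeR adjusted p = 1.31e-05). Against 2DC the SRF estimates were negative and not called, at -0.69 in 2DF, -0.43 in 3DF and -0.49 in 3DF_50 (edgeR adjusted p = 0.00441, 0.216 and 0.00556). MAP2K6, a p38 kinase activator, was the only 1 called in 2DF (-1.15) and in 3DF_50 (-1.53) against 2DC, and MEF2A the only 1 in 3DF (1.19). In 3DF_50, MEF2A fell just under the limit of 1 (0.989, edgeR adjusted p = 3.38e-05). Over all genes tested, 36 of 13608 were called in either direction with digestion. Against 2DC the numbers were 658 of 13258 in 2DF, 1020 of 13493 in 3DF and 1557 of 13402 in 3DF_50. Median log2 fold changes of the list were 0.063 for digestion and 0.015, 0.094 and 0.10 for 2DF, 3DF and 3DF_50. Those over all genes were -0.0048, 0.0045, 0.012 and 0.012. These transcript levels say nothing of phosphorylation.

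Genes with known AP-1 elements split by condition. Of 28 (27 matched), 4 of 24 tested were called higher with digestion and 0 lower, namely CCN1 (3.26), DUSP1 (3.12), PTGS2 (2.22) and CCL2 (1.07). In 2DF vs. 2DC, 3 of 25 were called higher, with VEGFA (1.87) and CCL2 (1.78) among them, and 0 lower. In 3DF vs. 2DC, 5 of 25 were called higher and 5 lower, among the latter CCN2 (-4.32), EDN1 (-3.70) and IL6 (-3.30). In 3DF_50 vs. 2DC, 5 of 23 were called higher and 6 lower, among the latter EDN1 (-5.99), CCN2 (-4.82), IL6 (-3.50) and CCN1 (-2.72). Over all genes tested, 36 of 13608 were called with digestion (35 of them higher) and 658 of 13258 in 2DF (270 higher). In 3DF, 1020 of 13493 were called (437 higher), and in 3DF_50, 1557 of 13402 (574 higher). The median log2 fold change of the list was 0.44 with digestion, 0.58 in 2DF, 0.17 in 3DF and -0.14 in 3DF_50, beside -0.0048, 0.0045, 0.012 and 0.012 over all genes. FOSL1 belongs to this list and to the relatives.

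Over the 15 libraries and 9689 genes with a symbol and a mean of at least 1 FPKM, EGR1 (Pearson r = 0.988 of log2(FPKM + 1)), DUSP1 (0.988) and IER2 (0.974) were most like FOS. KLF4 (0.977), ANGPTL4 (0.972) and PPP1R15B (0.971) were most like FOSB, and DUSP1 (0.979), PSPN (0.968) and IER2 (0.958) most like JUN. TGIF1 (0.970), CSRNP1 (0.965) and OTUD1 (0.962) were most like ATF3, and PLK3 (0.981), ETS2 (0.975) and DDIT3 (0.968) most like MAFF. The ranking depends on the measure. By Spearman correlation, EGR1 and IER2 for FOS, OTUD1 for ATF3, and all genes named for FOSB and JUN were outside the top 3. Among the 5 genes themselves r ran from 0.735 (FOS and ATF3) to 0.964 (FOS and JUN). These values describe libraries that fall into 5 conditions, and most of the spread lies between conditions.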

How the data were processed

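Bulk RNA-seq was analysed from 15 libraries grouped by their labels. The authors aligned reads to oryCun2 with HISAT2 and counted them with featureCounts, and the deposited counts are whole reads per gene without normalization. The deposited FPKM values are the authors' counts per gene length and library size. Depth was 14626982 to 31804255 reads per library.

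Each pair of conditions was tested on the counts in R 4.3.3 by edgeR's two-sided quasi-likelihood test (version 4.0.16), after TMM scaling and edgeR's low-count filter set to 10, with just those 2 conditions fitted, and Benjamini–Hochberg adjustment over all genes tested. Genes were called at an adjusted p of at most 0.05 and an absolute log2 fold change of at least 1. Unequal changes were tested as contrasts over all 5 conditions. The SE is the log2 fold change over the square root of F. Alternatives were DESeq2 1.42.0, its size factors, scaling to totals, other low-count filters (off, or 1 CPM on average), a joint fit of every condition, replicate and prefix blocks, limma 3.58.1 on log2 FPKM with a pseudocount of 1 or 0.1, other fold limits and leaving out each library. The scripts were tested on simulated counts.

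Named genes are the 5 genes, up to 4 called genes per list with the largest change, and the 3 genes most correlated with each. A few list members enter the counts without being named. The members and lists were chosen with earlier results of these data known. Nothing says that equal replicate numbers share an experiment.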

Additional observations from a re-analysis of the deposited data

How the results depend on the processing

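Of 276 counts of the 5 genes under alternatives, 253 stayed within 1.5 times the value reported and 23 moved. Of 1280 values of single genes, 1216 kept direction and side of the threshold, 29 lost the call, 10 gained it and 25 changed sign. With the library prefix as a block, 2DF vs. 2DC fell from 5 genes to 1 and 2DF vs. 2DC_L to 3. By the same block 3DF_50 vs. 2DF fell to 0, and unequal changes in 2DF rose to 2. Over all genes those fits gave 16, 87, 236 and 15, where the main fits gave 658, 972, 587 and 156. In the prefix fits 2DF is joined to the other conditions only through E5, and the cause was not tested. A log2 limit of 2 left 2 genes in 2DF, 3DF and 3DF_50 against 2DC and 0 in 3DF_50 vs. 2DF. In 3DF_50 vs. 2DF the count was 1 with DESeq2, library size only, the replicate block and both limma fits. Unequal changes in 2DF numbered 2 with DESeq2 and with no filter. Leaving out a library gave 3 to 5 genes in 3DF vs. 2DC, 0 to 1 in 3DF vs. 2DF, 1 to 2 in 3DF_50 vs. 2DF, 1 to 2 unequal in 2DF and 1 to 2 in 3DF. No comparison had every same-numbered pair correlated above 0.1, although a few such pairs also share a prefix (r of 0.313 for E2 and 0.0769 for E3 in 2DC and 2DC_L, 0.232 for E7 in 3DF_50 and 2DC_L), and the replicate block moved no other count. Sign changes concerned uncalled values. With the prefix block they were JUN in 3DF_50 vs. 2DC (-0.28), JUN, ATF3 and MAFF in 3DF vs. 2DF (0.13, 0.38 and 0.030), MAFF in 3DF vs. 3DF_50 (0.076) and the unequal change of MAFF (-0.28, -0.25 and -0.33 in 2DF, 3DF and 3DF_50). The MAFF value in 3DF was -0.017 with DESeq2, -0.0040 with its size factors and -0.00057 with no filter. With limma on log2(FPKM + 1), which compresses low FOSB levels, the FOSB values were 0.42, 0.65 and 0.0078. Without 1 library, 3DF vs. 2DF ran from -0.080 to 0.47 for FOS and from -0.13 to 0.50 for FOSB, MAFF in 3DF vs. 3DF_50 from -0.46 to 0.12, and its unequal change from -0.00062 to 1.03 in 2DF, -0.50 to 0.53 in 3DF and -0.25 to 0.75 in 3DF_50. With 3 libraries a condition, differences near the spread of 3DF, where replicate 2 was highest, could not be resolved.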
